A study of Mus musculus with 22 samples.

Results

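The 37 genes encoded by the mouse mitochondrial genome were followed in fully grown germinal vesicle (GV) oocytes that lacked oocyte RNA interference, the catalytic activity of MILI, or both. The members are all genes that the deposited table places on chromosome M, 37 of its 52636 genes: 13 protein-coding genes, 2 rRNA genes and 22 tRNA genes. No measured value entered the choice. The series held 22 C57BL/6 samples in 2 sequencing runs of 11 samples each, which differed in instrument and read type and were analysed apart. The first run, with shorter single-end reads, held 3 Dicer WT/WT samples (wild type), 1 Dicer ΔMT/WT sample, 4 Dicer ΔMT/ΔMT samples and 3 Dicer SOM/SOM samples. The second run, with longer paired-end reads, held 4 Mili DAH/WT, Dicer SOM/WT samples (heterozygous control), 2 Mili DAH/WT, Dicer SOM/SOM samples (RNAi mutant), 1 Mili DAH/DAH, Dicer SOM/WT sample (piRNA mutant) and 4 Mili DAH/DAH, Dicer SOM/SOM samples (double mutant). Every sample of the second run, controls included, therefore carried at least 1 DAH and 1 SOM allele. The ΔMT allele lacks the retrotransposon promoter of the oocyte-specific short Dicer, of which some can still be made from a second element, and the SOM allele makes only full-length HA-tagged Dicer and goes back to a single germline-transmitting founder. The DAH allele encodes MILI with a mutated catalytic site. Each sample was a small pool of oocytes from superovulated or non-stimulated animals, and the labels do not say which, nor that every pool came from a separate animal, so p-values measure the spread between these samples, which may be partly technical. The labels give no ages for the first run. In the second run the double mutant samples 1 to 4 came from animals of 40, 35, 11 and 11 weeks, the controls 1 to 4 from 36, 38, 10 and 17 weeks, the RNAi mutants from 17 and 13 weeks and the piRNA mutant from 16 weeks.

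The mitochondrial genome is a compact circle transcribed from both strands into long precursors, from which the tRNAs are cut out so that rRNAs and mRNAs are released between them. It encodes core subunits of respiratory complexes I, III and IV and of the ATP synthase (complex V), the rRNAs of the mitochondrial ribosome and the tRNAs it uses, while every protein that copies, transcribes and processes this genome is made from nuclear genes. A mature mouse oocyte stores very many mitochondria, and their transcripts are made by a dedicated RNA polymerase rather than by RNA polymerase II.

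The gene order of the reference used here (GRCm38, GENCODE M21) shows why reads on these genes are hard to assign. Of 36 neighbouring gene pairs, 12 touch without a spare base and 9 overlap, and the widest gap is 32 bases. The genes on the minus strand number 9, namely mt-Nd6 and 8 tRNA genes, and since counting ignored strand, a read on them cannot be told from a read of the opposite precursor. The following stretches are shown because they carry these features: mt-Atp8 with its last 43 bases, which are also the start of mt-Atp6, in capitals (chrM:7766-7969, plus strand), the tRNA gene mt-Tl1 in capitals between the end of mt-Rnr2 and the start of mt-Nd1 (chrM:2646-2780, plus strand), and the ends of mt-Co3 (chrM:9361-9390), mt-Nd4 (chrM:11515-11544) and mt-Cytb (chrM:15259-15288), plus strand, which stop on the single base in capitals, a bare T that polyadenylation is known to complete to a stop codon.
mt-Atp8: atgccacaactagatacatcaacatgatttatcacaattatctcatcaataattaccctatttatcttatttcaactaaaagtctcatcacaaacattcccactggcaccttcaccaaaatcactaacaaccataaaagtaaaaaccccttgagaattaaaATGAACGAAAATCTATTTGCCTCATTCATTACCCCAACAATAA
mt-Rnr2 to mt-Nd1: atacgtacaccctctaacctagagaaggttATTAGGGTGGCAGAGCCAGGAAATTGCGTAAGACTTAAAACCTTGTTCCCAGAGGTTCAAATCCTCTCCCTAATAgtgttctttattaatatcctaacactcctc
mt-Co3 end: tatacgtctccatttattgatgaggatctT
mt-Nd4 end: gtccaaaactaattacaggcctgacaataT
mt-Cytb end: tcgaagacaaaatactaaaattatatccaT

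Nuclear insertions of mitochondrial DNA make a second difficulty. Annotated genes elsewhere that matched a mitochondrial gene over at least 100 bases at 95% identity or more numbered 11, of which 7 lie side by side on chromosome 1, 3 on chromosome 2 and 1 on chromosome 13, and together they match 9 of the 13 coding genes. No such match was found for mt-Nd1, mt-Atp8, mt-Nd6, mt-Cytb or the rRNA genes. The tRNA genes, of 59 to 75 bases, are shorter than the 100 bases asked for. They could not match, so whether they have nuclear copies was not examined. Only annotated transcripts were searched, so copies outside them would be missed. The stretch between Gm10925 and Gm28661, the copies of mt-Atp6 and mt-Co2 on chromosome 1, lies where mt-Atp8 would be and was not searched. The pairs below show how few bases separate a copy from the gene: mt-Nd3 (chrM:9459-9548, plus strand) beside Gm28438 (chr1:24613030-24613119, minus strand), and mt-Co1 (chrM:5328-5417, plus strand) beside Gm13340 (chr2:22589558-22589647, minus strand), with the bases that differ in capitals.
mt-Nd3 beside Gm28438: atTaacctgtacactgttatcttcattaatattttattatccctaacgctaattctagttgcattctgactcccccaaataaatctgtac
Gm28438: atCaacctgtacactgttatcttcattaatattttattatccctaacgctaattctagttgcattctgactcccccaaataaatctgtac
mt-Co1 beside Gm13340: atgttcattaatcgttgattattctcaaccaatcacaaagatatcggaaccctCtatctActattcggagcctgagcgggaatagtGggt
Gm13340: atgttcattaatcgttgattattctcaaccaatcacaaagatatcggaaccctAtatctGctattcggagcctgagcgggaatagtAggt

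The counts of the copies differed by copy and by run, and identity alone did not order them. Gm28439, identical to mt-Nd4 over 876 bases, held medians of 0.408 (single-end run) and 0.375 (paired-end run) counts per count of mt-Nd4. The authors divided reads that fit several places among them, and Gm28437, identical to mt-Co3 over 783 bases, held 1.003 counts per count of mt-Co3 as the median of the single-end run and 1.01 in the paired-end run. Gm28438, with 1 mismatch to mt-Nd3 over 345 bases, held medians of 1.08 and 1.35 counts per count of mt-Nd3. Gm13340, with 37 mismatches to mt-Co1 over 1545 bases, held a median of 0.156 counts per count of mt-Co1 in the single-end run (range 0.150 to 0.164) and 0.0121 in the paired-end run (range 0.00856 to 0.0154). Relative to mt-Co1, this copy thus held far fewer counts in the run with longer reads, and levels of the coding genes are not compared between the runs. Adding the copies to their mitochondrial genes left the number of members called in each comparison as it was.

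**Figure D1:**
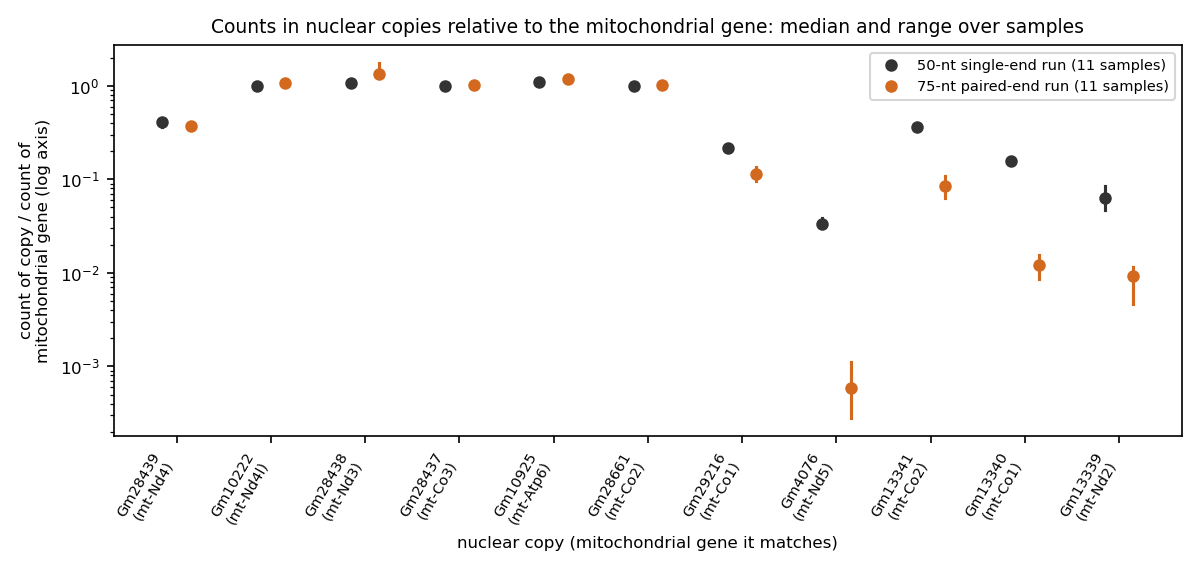
Counts of each of 11 nuclear copies divided by the counts of the mitochondrial gene it matches, on a log axis, with the median (point) and range (line) over the 11 samples of each run. Those on chromosomes 13 and 2 (the last 4) hold far fewer counts in the paired-end run. Of those on chromosome 1 (the first 7), Gm29216 falls from a median of 0.219 to 0.115 and Gm28438 rises from 1.08 to 1.35.

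Dicer1 levels matched the Dicer labels, while the Mili labels could not be checked. Total counts ranged from 6468380 (SOM homozygote replicate 3) to 90713013 in the single-end run and from 22928936 to 43540806 in the paired-end run. Dicer1 fell by 1.06 on the log2 scale in ΔMT homozygotes, by 4.34 in SOM homozygotes and by 3.46 and 3.47 in RNAi and double mutants (edgeR adjusted p at most 8.47e-05). The catalytic change in Mili need not change its RNA, so Piwil2 levels check nothing here. The 10 oocyte markers summed to between 10981 and 15017 CPM (counts scaled to the same total in every sample), and 10 granulosa and cumulus markers to between 82.0 and 149 CPM. The 9 B-cell markers summed to between 95.55 and 178 CPM, nearly all of it on Ms4a1, Ighm and Pax5. Markers of blood cells and macrophages summed to 4.89 to 8.34 CPM in wild type, 11.0 to 37.3 CPM in SOM homozygotes, 9.20 to 10.5 CPM in ΔMT homozygotes, 4.99 to 6.69 CPM in heterozygous controls, 9.63 to 9.96 CPM in RNAi mutants and 10.4 to 18.6 CPM in double mutants, and 6 of the 9 stayed under 1 CPM in every sample of each of these groups. Cd68 was the largest of them in every SOM homozygote and double mutant sample. It ran from 1.19 to 4.03 CPM in wild type, 5.29 to 7.10 CPM in ΔMT homozygotes and 7.90 to 34.9 CPM in SOM homozygotes. In controls it ran from 1.31 to 2.36 CPM and in double mutants from 6.20 to 8.84 CPM, and RNAi mutants had 6.07 and 5.06 CPM. Csf1r ran from 2.68 to 2.79 CPM in wild type and 1.31 to 2.92 CPM in SOM homozygotes. In the paired-end run Csf1r ran from 2.08 to 3.01 CPM in controls and 1.63 to 5.86 CPM in double mutants. The part of these markers in the results below was not tested. Counts on the nuclear rRNA locus Gm42418 ranged from 4788 to 18573 CPM in SOM homozygotes against 5079 to 5677 CPM in wild type, and in the paired-end run they split the libraries of the control and double mutant groups 2 and 2 at 1000 CPM.

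Mitochondrially encoded transcripts took 2.28% to 4.67% of all counts over the 22 samples. The 2 rRNA genes made up 75.1% to 85.2% of these counts and the 13 coding genes 14.6% to 24.8%, while the 22 tRNA genes together held only 0.00246% to 0.00767% of all counts. Per length, in CPM per kb, the order of the coding genes in wild type began with mt-Co1, the catalytic subunit of cytochrome c oxidase, at 1401 ± 211 CPM per kb (SD, n = 3) and mt-Cytb, the only complex III subunit encoded here, at 1207 ± 191 CPM per kb. The ranges of these genes overlapped, and both lay above all other coding genes. A middle group of mt-Nd1, mt-Atp6, mt-Nd4, mt-Atp8 and mt-Nd5 followed in that order with overlapping neighbours, from 555 ± 74.7 for mt-Nd1 to 393 ± 32.2 CPM per kb for mt-Nd5. Next came mt-Co2, mt-Nd2, mt-Nd4l and mt-Nd6 with 301, 240, 237 and 199 CPM per kb, again with overlapping neighbours, and then mt-Co3 with 145 CPM per kb. The lowest was mt-Nd3, a small complex I subunit, with 12.7 ± 1.69 CPM per kb, so the coding genes spanned 111-fold in wild type and 89.1-fold in heterozygous controls, where mt-Nd3 was again lowest and mt-Co1 highest. Since at least 9 of the coding genes have nuclear copies with which they may share reads, among them mt-Nd4 (0.408 counts on Gm28439 per count in the single-end run) and mt-Co1, their places in this order are uncertain. The rRNA genes stood far above the mRNAs, with 12687 ± 1095 CPM per kb for mt-Rnr2 (the large-subunit rRNA) and 11550 ± 1124 for mt-Rnr1 (the small-subunit rRNA) in wild type.

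The tRNA genes were barely captured. Of the 22 genes, 6 stayed below 1 CPM in every sample and 2 reached 1 CPM in every sample. Over all samples of both runs pooled, the 3 highest by mean were mt-Tl1 (a leucine tRNA) with a median of 19.5 CPM (10.9 to 43.2), mt-Ts1 (a serine tRNA) with 3.97 CPM (2.46 to 8.38) and mt-Tf (the phenylalanine tRNA) with 2.68 CPM (0.618 to 6.18). The order below mt-Tl1 varied by genotype, and in SOM homozygotes mt-Tp (mean 2.57 CPM) lay above mt-Tf (mean 0.99 CPM). With genes of 59 to 75 bases and a minimum overlap of 10 bases, a read counted here may belong mostly to a neighbouring gene or to an uncut precursor.

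**Figure D2:**
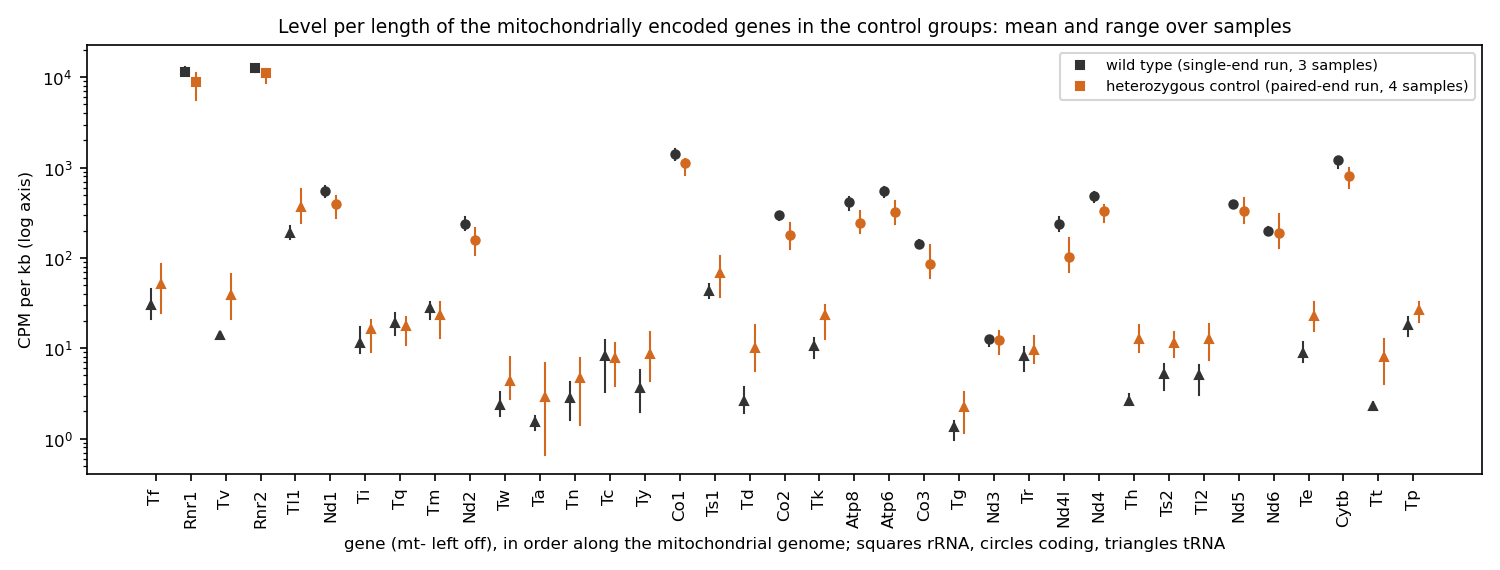
Level of the 37 mitochondrially encoded genes in CPM per kb on a log axis, in order along the genome, as the mean (marker) and range (line) over 3 wild-type and 4 heterozygous control samples. By mean, the 2 rRNA genes lie highest, mt-Co1 and mt-Cytb lead the coding genes, mt-Nd3 is the lowest coding gene, and all tRNA genes but mt-Tl1 lie below every coding gene other than mt-Nd3. In heterozygous controls the ranges of mt-Tf, mt-Ts1 and mt-Tv overlap that of mt-Co3.

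The first question was whether loss of RNAi or of both pathways altered the share of mitochondrial RNA among all counts. The share of all counts on the 37 genes was 4.14%, 3.56% and 3.65% in wild-type samples, 4.67%, 4.34%, 3.20% and 3.34% in ΔMT homozygotes and 2.55%, 3.11% and 3.999% in SOM homozygotes. In the paired-end run it was 3.17%, 2.28%, 3.59% and 3.31% in heterozygous controls, 3.24% and 3.28% in RNAi mutants and 3.24%, 3.22%, 3.57% and 2.76% in double mutants. The groups overlapped in all 6 comparisons, and exact two-sided permutation tests on the log2 share gave p between 0.257 and 0.886. The smallest p these designs allow is 0.1 for 3 against 3 samples, 0.0667 for 2 against 4 and 0.0286 for 3 against 4 or 4 against 4. The largest differences were those of SOM homozygotes, -0.25 on the log2 scale against wild type and -0.28 against ΔMT homozygotes. A share is not an amount, since it also moves with the nuclear RNA in the total. In pools of oocytes, fewer mitochondria per oocyte, less RNA per mitochondrion and more nuclear RNA cannot be told apart. The single ΔMT heterozygote had 3.97% and the single piRNA mutant 2.36%, with no replicate to compare.

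The balance between rRNA and mRNA was examined next. The 13 coding genes took 0.510%, 0.355%, 0.587% and 0.484% of all counts in heterozygous controls, 0.692% and 0.675% in RNAi mutants and 0.706%, 0.657%, 0.781% and 0.592% in double mutants. Every RNAi and double mutant sample thus lay above every control. The mean log2 difference was 0.51 for double mutants, a 1.43-fold higher coding share, with an exact permutation p of 0.0286, the smallest the design allows, and 0.171 after adjustment over the 6 comparisons of this share. For RNAi mutants it was 0.52 (exact permutation p = 0.133, adjusted p = 0.4). On average mt-Co1 alone made up 35.7% of the coding counts in controls, 43.7% in RNAi mutants and 39.8% in double mutants. Double mutants overlapped controls in this percentage. The coding share, and the ratio of rRNA to coding counts below, thus weigh this gene most. The part of mt-Co1 in their differences was not tested. The rRNA share did not separate the groups: it was 2.66%, 1.92%, 2.998% and 2.82% in controls, 2.55% and 2.60% in RNAi mutants and 2.53%, 2.55%, 2.78% and 2.16% in double mutants. The log2 differences of the rRNA share were 0.0061 and -0.038 for RNAi and double mutants (exact permutation p of 1 and 0.8).

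The ratio of rRNA counts to coding counts does not depend on the sample total. It was 5.21, 5.41, 5.10 and 5.84 in heterozygous controls, against 3.68 and 3.86 in RNAi mutants and 3.59, 3.89, 3.56 and 3.65 in double mutants. The 6 samples without RNAi in this run lay between 3.56 and 3.89 and the 5 others, including the piRNA mutant at 5.05, between 5.05 and 5.84. The ratio was 0.682-fold that of controls in double mutants, with an exact permutation p of 0.0286, and 0.700-fold in RNAi mutants (exact permutation p = 0.0667), in each case the smallest p possible, and the adjusted p over 6 comparisons was 0.15 for both. Double and RNAi mutants did not separate from each other, with a log2 difference of -0.038 (exact permutation p = 0.533).

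In the single-end run the ratio was 4.56, 4.18 and 5.36 in wild type, 3.303, 3.5997, 3.555 and 4.323 in ΔMT homozygotes and 3.91, 3.03 and 3.65 in SOM homozygotes. All SOM homozygotes lay below all wild-type samples, at 0.750-fold (exact permutation p = 0.1, the smallest possible, adjusted p = 0.15). The log2 differences behind this were 0.079 for the coding share and -0.34 for the rRNA share (exact permutation p = 0.7 and 0.3). Both shares overlapped between these groups, unlike the coding share in the paired-end mutants, where the rRNA share hardly differed. ΔMT homozygotes lay at 0.786-fold, with replicate 4 inside the wild-type range (exact permutation p = 0.0857, adjusted p = 0.15). Their coding share differed by 0.30 and their rRNA share by -0.044 on the log2 scale (exact permutation p = 0.257 and 0.829), with overlapping groups. The single ΔMT heterozygote had a ratio of 4.61, within the range of wild type. In no comparison of the ratio did the adjusted p fall under 0.05, and with these group sizes adjustment over 6 comparisons cannot bring it there.

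Double mutants had the lower ratio at both levels of nuclear rRNA, and RNAi mutants at the higher level, the only one they had. Both had it in the younger animals. The part of nuclear rRNA or age in the ratio was not tested. Among libraries above 1000 CPM of Gm42418, controls had 5.21 and 5.84, RNAi mutants 3.68 and 3.86 and double mutants 3.56 and 3.59. Among those below, controls had 5.10 and 5.41 and double mutants 3.65 and 3.89. Among animals of at most 17 weeks, the log2 difference was -0.60 for double mutants and -0.53 for RNAi mutants. Adding the counts of the nuclear copies to the coding genes gave -0.54 and -0.49 in all animals.

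**Figure D3:**
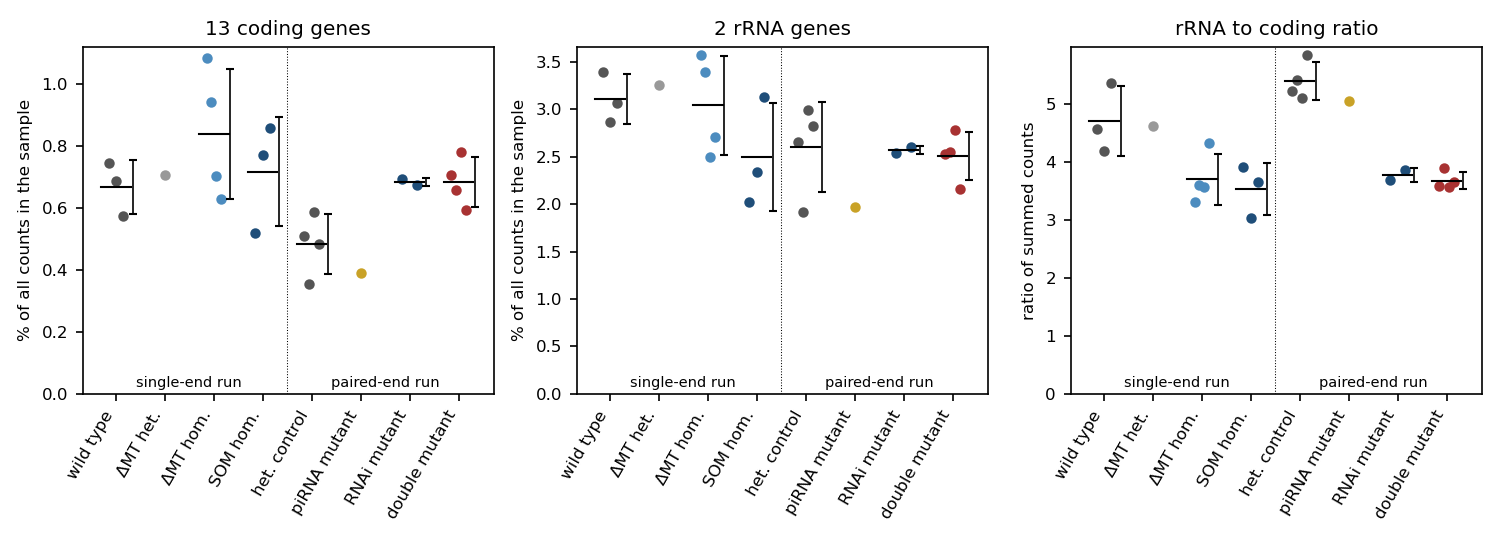
Share of all counts on the 13 coding genes (left, %) and the 2 rRNA genes (middle, %), and ratio of rRNA to coding counts (right), for each sample by genotype (points), with group mean (bar) and SD (whisker) where a group has at least 2 samples. The ratio is 3.56 to 3.89 in the 6 RNAi and double mutant samples and 5.05 to 5.84 in the other 5 samples of the paired-end run.

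Single genes were then compared with edgeR's quasi-likelihood test, fitted over all genes of each run with Benjamini-Hochberg adjustment, and a gene was called at an adjusted p under 0.05. Against heterozygous controls, the double mutant had 6 of 35 tested members called (17.1%, against 21.2% of all 20989 genes), 5 higher (12.3% of all genes) and 1 lower (8.83% of all genes). The RNAi mutant had 2 of 35 called (10.7% of all genes), both higher (7.07% of all genes, with 3.64% lower). The share of members called, 5.71% in RNAi mutants, was thus below that of all genes in both. The 13 coding genes had a median log2 change of 0.37 in double mutants, with 13 of 13 above 0, and of 0.18 in RNAi mutants, with 9 of 13 above 0, beside medians over all genes of -0.0012 and -0.023. Both comparisons share the control samples. The tRNA genes had medians of -0.052 and -0.35, with 20 of 22 tested, since mt-Ta and mt-Tg had too few counts. By complex, the median in double mutants was 0.13 over the 7 complex I genes, 0.63 over the 3 of complex IV and 0.34 over the 2 of complex V.

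mt-Co1 rose in both mutants. It measured 1798, 1272, 1930 and 1880 CPM in controls, 2849 and 3119 CPM in RNAi mutants and 2612, 2500, 3326 and 2452 CPM in double mutants, and the controls did not overlap either mutant (nor did the groups of 35.1% of all genes for RNAi and 23.3% for double mutants). The log2 change was 0.82 ± 0.17 (SE, edgeR adjusted p = 0.00501) in RNAi mutants and 0.66 ± 0.14 (adjusted p = 0.00384) in double mutants. The call in RNAi mutants was lost without RNAi mutant replicate 2 (0.72, adjusted p = 0.0934), while that in double mutants held without any single replicate.

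mt-Nd1, a complex I subunit with no annotated nuclear copy found, behaved alike. It measured 372, 266, 463 and 399 CPM in controls, 720 and 594 CPM in RNAi mutants and 568, 636, 758 and 528 CPM in double mutants, again with no overlap. The log2 change was 0.83 ± 0.18 (edgeR adjusted p = 0.00891) in RNAi mutants and 0.73 ± 0.15 (adjusted p = 0.00389) in double mutants. The RNAi mutant call was lost without RNAi mutant replicate 1 (0.72, adjusted p = 0.13). Restricting the run to animals of at most 17 weeks left 2 samples in each group and ended the calls of mt-Nd1 (0.66 and 0.63, adjusted p = 0.0939 and 0.0898) and of mt-Co1 in double mutants (0.65, adjusted p = 0.0537), with similar sizes.

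mt-Nd2 and mt-Co2, a complex I and a complex IV subunit, were called higher in double mutants only. mt-Nd2 measured 175, 112, 221 and 157 CPM in controls and 341, 315, 259 and 179 CPM in double mutants. mt-Co2 measured 142, 86.9, 165 and 96.9 CPM in controls and 225, 230, 157 and 151 CPM in double mutants. Both overlapped between groups, and the log2 changes were 0.72 ± 0.21 (edgeR adjusted p = 0.0266) and 0.63 ± 0.21 (adjusted p = 0.0446). In RNAi mutants they were 0.47 (adjusted p = 0.301) and 0.42 (adjusted p = 0.351), and double and RNAi mutants did not differ in the direct test (0.25 and 0.21, edgeR adjusted p = 0.9997). Both calls were lost when double mutant replicate 1 or 2, or control replicate 2 or 4, was left out (mt-Nd2 0.58 to 0.69, mt-Co2 0.51 to 0.55), and in animals of at most 17 weeks the changes were 0.27 and 0.29. With sample totals in place of TMM, or with age as a term, mt-Co2 also missed the threshold (adjusted p = 0.0542 and 0.0534).

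The other coding genes did not pass the test in either mutant. In double mutants they ran from 0.015 for mt-Nd3 to 0.40 for mt-Nd4 (adjusted p = 0.0531), with 0.38 for mt-Cytb, 0.37 for mt-Co3 and 0.34 for mt-Atp6 and mt-Atp8, the ATP synthase subunits. mt-Nd4l, mt-Nd5 and mt-Nd6 had 0.097, 0.086 and 0.13. In RNAi mutants mt-Nd4 (0.34) and mt-Cytb (0.36) lay above every control without passing the test (adjusted p = 0.231 and 0.296, with 35.1% of all genes not overlapping), and mt-Nd3, mt-Nd4l, mt-Nd5, mt-Nd6, mt-Atp8, mt-Atp6 and mt-Co3 lay between -0.19 and 0.18. Of the rRNA genes, mt-Rnr1 had 0.22 and 0.15 and mt-Rnr2 -0.10 and -0.17 in RNAi and double mutants, none of which passed (adjusted p = 0.555, 0.581, 0.728 and 0.331).

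Of the tRNA genes, mt-Tp (proline, minus strand) was called higher in double mutants, with 1.89, 1.32, 2.16 and 1.71 CPM in controls and 3.87, 2.29, 4.13 and 2.65 CPM in mutants (log2 change 0.86 ± 0.26, edgeR adjusted p = 0.0324). mt-Th (histidine) was called lower, with 0.623, 0.616, 0.941 and 1.20 CPM in controls and 0.329, 0.373, 0.304 and 0.404 CPM in mutants (-1.25 ± 0.39, adjusted p = 0.0348). Neither overlapped between the groups. mt-Th begins a run of 3 tRNA genes between mt-Nd4 and mt-Nd5, and its neighbours mt-Ts2 and mt-Tl2 had -0.996 and -1.02 in double mutants and -1.44 and -1.43 in RNAi mutants, without passing the test (adjusted p = 0.117, 0.1, 0.135 and 0.129). The call of mt-Tp was lost without double mutant replicate 1 or 3 or control replicate 1, 2 or 4 (0.72 to 0.91), and that of mt-Th without double mutant replicate 1, 2 or 3 or control replicate 3 or 4 (-1.25 to -1.03). Without a filter on low counts both missed the threshold (adjusted p = 0.0545 and 0.0928).

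Between double and RNAi mutants no member was called by edgeR (0 of 35, and 0 at an unadjusted p under 0.05, with 0 by DESeq2), beside 0.314% of all genes called, 0.31% higher and 0.00476% lower. The coding genes had a median log2 difference of 0.19, from -0.16 for mt-Co1 to 0.32 for mt-Atp8.

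**Figure D4:**
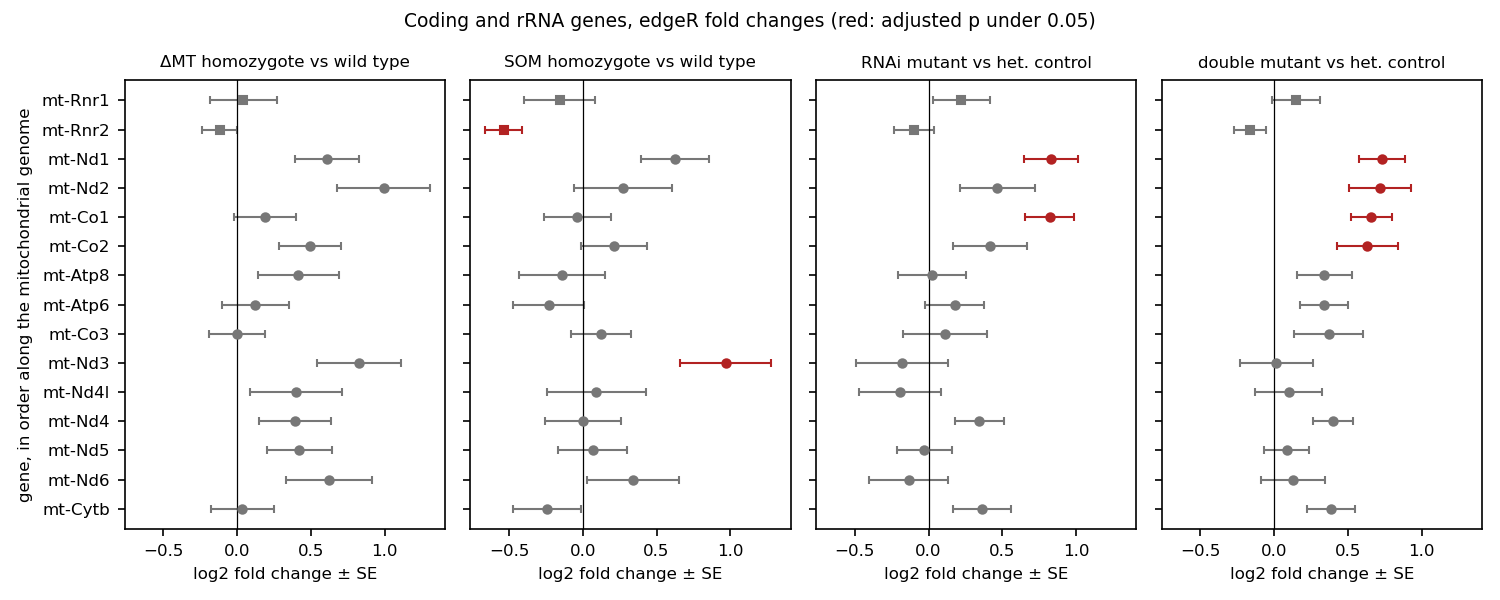
Log2 fold change (x axis, with SE) of the 13 coding genes (circles) and 2 rRNA genes (squares), in order along the mitochondrial genome, in the 4 comparisons of mutants with their controls, with calls at an edgeR adjusted p under 0.05 in red. mt-Nd1 and mt-Co1 are called in both paired-end comparisons, and mt-Rnr2 and mt-Nd3 in SOM homozygotes.

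In the single-end run, SOM homozygotes had 2 of 37 members called against wild type (5.41%, beside 28.6% of all 23151 genes), 1 lower (14.2% of all genes) and 1 higher (14.5% of all genes). mt-Rnr2 fell. It measured 21642, 18212 and 20361 CPM in wild type and 12648, 14374 and 16576 CPM in SOM homozygotes, with no overlap (as for 41.2% of all genes), a log2 change of -0.54 ± 0.13 (edgeR adjusted p = 0.00908). This call held in all 15 refits, those without any single replicate included (-0.61 to -0.46). Counts on the nuclear rRNA locus Gm42418 moved the other way, 13030, 4788 and 18573 CPM in the same SOM homozygotes (1.07, adjusted p = 0.039), and their part in the result was not tested. mt-Rnr1, which precedes it on the same precursor, measured 12268, 10476 and 10347 CPM in wild type and 7616, 9016 and 14787 CPM in SOM homozygotes, the last in the shallow replicate 3, and did not pass (-0.16, adjusted p = 0.673).

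mt-Nd3 rose in SOM homozygotes, from 4.74, 3.73 and 4.76 CPM to 6.31, 10.2 and 11.1 CPM (0.97 ± 0.31, edgeR adjusted p = 0.0368), with no overlap. It is the coding gene with the lowest level and shares reads with Gm28438, and the call was lost without wild type replicate 1, 2 or 3 or SOM homozygote replicate 2 or 3 (0.81 to 1.02). mt-Nd1, with 598, 539 and 456 CPM in wild type and 606, 883 and 1105 CPM in SOM homozygotes, had a log2 change of 0.62 ± 0.23 and missed the threshold (adjusted p = 0.0645). mt-Co1 measured 2509, 2122 and 1860 CPM in wild type and 1743, 2460 and 2455 CPM in SOM homozygotes, a change of -0.037 (adjusted p = 0.929). The coding genes had a median of 0.092, with 8 of 13 above 0, beside 0.017 over all genes. Their other members ran from -0.24 for mt-Cytb to 0.34 for mt-Nd6.

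In ΔMT homozygotes 1 of 37 members was called, mt-Tp, which was higher (2.7%, beside 15.4% of all genes called, 8.06% higher and 7.3% lower). It measured 1.48, 1.27 and 0.911 CPM in wild type and 3.30, 4.81, 2.63 and 2.48 CPM in ΔMT homozygotes (1.40 ± 0.39, edgeR adjusted p = 0.0359), and the call was lost without any one of the wild-type samples or without ΔMT homozygote replicate 1 or 2 (1.16 to 1.56). All 22 tRNA genes had a log2 change above 0, with a median of 0.80, and 12 of the 13 coding genes did, with a median of 0.41, beside 0.0079 over all genes. Among coding genes the changes of mt-Nd2 (0.99, adjusted p = 0.0567), mt-Nd3 (0.83, adjusted p = 0.0738), mt-Nd1 (0.61, adjusted p = 0.0825), mt-Co2 (0.49, adjusted p = 0.14) and mt-Atp8 (0.41, adjusted p = 0.347) had all samples above wild type without passing, 5 of the 13 coding genes, beside 32.9% of all genes whose groups did not overlap in this comparison. mt-Nd2, for example, measured 297, 237 and 213 CPM in wild type and 741, 615, 343 and 321 CPM in ΔMT homozygotes, where replicates 1 and 2 lay well above replicates 3 and 4. These same replicates had the larger total share (4.67% and 4.34% against 3.20% and 3.34%). mt-Rnr1 (0.042) and mt-Rnr2 (-0.12) did not pass.

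Between the Dicer alleles, SOM against ΔMT homozygotes, 1 of 37 members was called, lower (2.7%, beside 7.35% of all genes called, 3.32% lower and 4.03% higher). This was mt-Tv, the valine tRNA between the rRNA genes, with 2.82, 1.47, 0.919 and 1.29 CPM in ΔMT homozygotes and 0.440, 0.591 and 0.696 CPM in SOM homozygotes (-1.62 ± 0.40, edgeR adjusted p = 0.033). The call was lost without ΔMT homozygote replicate 2 or any one of the SOM homozygotes (-1.79 to -1.45), and when the other group was left out of the fit (-1.63, adjusted p = 0.0681). The tRNA genes had a median of -0.80, with 21 of 22 below 0, and the coding genes a median of -0.28, with 10 of 13 below 0, beside 0.0095 over all genes. mt-Rnr2 had -0.42 (adjusted p = 0.0592).

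The nuclear genes that express the mitochondrial genome were examined as 45 genes in 5 lists (transcription, mtDNA replication, RNA processing, RNA stability and decay, and nuclear regulators of the pathway), all of which were tested in every comparison. In ΔMT homozygotes 4 rose and 1 fell, in SOM homozygotes 6 rose and 7 fell, in RNAi mutants 3 rose and 0 fell, and in double mutants 4 rose and 1 fell, beside the shares of all genes given above. The medians over the 45 genes were -0.026, -0.081, -0.13 and -0.062. Mterf2, which stayed below 1 CPM in every sample, was called higher in ΔMT and SOM homozygotes (2.84 and 3.40, edgeR adjusted p = 0.00908 and 0.00261). In the remaining comparisons 1 gene fell between SOM and ΔMT homozygotes, Ptcd2, and none was called between double and RNAi mutants.

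Mterf4, a factor of mitochondrial ribosome assembly, and Ptcd1, a protein that binds leucine tRNA precursors, were called higher in all 4 comparisons with controls. Mterf4 rose by 0.39 in ΔMT homozygotes, 0.49 in SOM homozygotes, 0.58 in RNAi mutants and 0.55 in double mutants (edgeR adjusted p between 0.00251 and 0.0128). Ptcd1 rose by 0.39, 0.43, 0.51 and 0.51 (adjusted p between 0.0104 and 0.0479). Twnk, the helicase of mtDNA replication, rose by 0.79 in ΔMT homozygotes (adjusted p = 0.00974), by 0.72 in RNAi mutants (adjusted p = 0.00782) and by 0.80 in double mutants (adjusted p = 0.000594), and had 0.42 in SOM homozygotes (adjusted p = 0.106). It measured 17.3, 15.9 and 14.7 CPM in wild type and 28.2, 25.1, 29.96 and 30.02 CPM in ΔMT homozygotes. In the paired-end run it measured 16.2, 17.4, 21.2 and 16.9 CPM in controls and 30.8, 34.5, 28.7 and 31.1 CPM in double mutants. Neither of these pairs of groups overlapped (as for 32.9% and 23.3% of all genes). SOM homozygotes, with 24.2, 25.9 and 15.2 CPM, overlapped wild type.

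Of the core machinery, Polrmt, the mitochondrial RNA polymerase, had changes between -0.37 and 0.43 over the 6 comparisons and passed in none. Tfb2m and Tefm, its initiation and elongation factors, and Polg, the mtDNA polymerase, passed in none either, with Polg at -0.36 in ΔMT homozygotes (adjusted p = 0.0614) and -0.42 in double mutants (adjusted p = 0.0659). Tfam, which packages mtDNA and activates its promoters, rose by 0.57 in SOM homozygotes (adjusted p = 0.0411) and had 0.34 in double mutants (adjusted p = 0.182). Lrpprc and Slirp form the complex that stabilises mitochondrial mRNAs. Lrpprc measured 77.9, 92.3, 106 and 81.3 CPM in controls and 56.5, 77.3, 59.6 and 74.4 CPM in double mutants, where it fell by 0.42 (edgeR adjusted p = 0.0414), and Slirp had -0.42 there (adjusted p = 0.0505). In SOM homozygotes they had -0.11 and -0.12 (adjusted p = 0.701 and 0.468).

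Among the called genes at 1 CPM or more, Ppargc1b, a coactivator of nuclear genes for mitochondria, fell by 0.85 in ΔMT and 1.01 in SOM homozygotes (edgeR adjusted p = 0.00537 and 0.00193), and measured 20.02, 22.5 and 19.6 CPM in wild type and 8.45, 11.9 and 12.5 CPM in SOM homozygotes. Hsd17b10, a subunit of the mitochondrial RNase P that cuts tRNA 5′ ends, rose by 0.79 in SOM homozygotes (adjusted p = 0.0416) and by 1.12 in double mutants (adjusted p = 0.00242). Tfb1m, a methyltransferase of mt-Rnr1, fell by 0.60 in SOM homozygotes (adjusted p = 0.00282) and had -0.57 in double mutants (adjusted p = 0.124). Fastk, linked to mt-Nd6 mRNA, rose by 0.71 and Fastkd1 fell by 0.65 in SOM homozygotes (adjusted p = 0.0279 and 0.0259).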

How the data were processed

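Per the labels and the study's methods, total RNA of oocyte pools was made into unstranded Ovation V2 libraries, aligned by the authors with STAR 2.5.3a to mm10 (GRCm38) and counted with featureCounts on GENCODE M15 without strand, with reads that fit several places or genes divided among them. The deposited values are therefore estimated counts, of which 31.6% were not whole (tolerance 0.005). The retrotransposon table was not used here.

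CPM and shares use the deposited total of each sample. For tests, counts were rounded and each run was fitted apart with edgeR 4.0.16 (R 4.3.3, TMM, quasi-likelihood F-test) over genes with about 10 counts in as many replicated samples as the smallest replicated group and at least 15 in all. The single ΔMT heterozygote was left out of the fit and the single piRNA mutant kept as its own group. Genes were called at a Benjamini-Hochberg adjusted p under 0.05. Shares and ratios were compared on the log2 scale with exact two-sided permutation tests, adjusted over 6 comparisons. The test was run on simulated counts with 200 genes changed by 1.5 log2 units: it recovered 91.5% for SOM homozygotes against wild type (19307 genes) and 95.5% for double mutants against controls (16686 genes), with 3.68% and 7.28% of calls on unchanged genes. The changed genes were drawn only from genes above a minimum mean level, which most tRNA genes did not reach. Recovery of smaller changes was not simulated. DESeq2 1.42.0 and other settings served as alternatives. Levels per length use the deposited gene lengths, and GENCODE M21 gave symbols for 52403 of 52636 genes. Nuclear copies were found by aligning mitochondrial genes to GENCODE M21 transcripts. Named were all coding and rRNA genes, tRNA genes that were called (at most the 5 with the lowest adjusted p) or among the 3 highest by CPM, and of the nuclear lists the 3 largest rises and falls called at 1 CPM or more plus Polrmt, Tfam, Tefm, Tfb2m, Polg, Twnk, Lrpprc and Slirp. The members and lists were chosen with earlier results of these data known. Values from few counts, such as those of most tRNA genes, carry counting error that their replicate spread includes.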

Additional observations from a re-analysis of the deposited data

Results flagged for a closer look

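In a search for samples far from the rest of their group, made over 69 groups of 4 samples, 1 value stood out. The level of mt-Co3 in heterozygous control replicate 3 was 109 CPM, against 47.1 to 57.6 CPM in the other 3 controls, and its gap to the nearest of them was 0.83 of the range of the group, beside a critical value of 0.829. Chance gives such a value in about 1 of 20 groups. mt-Co3 was not called in any comparison.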

How the results depend on the processing

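The rRNA to coding ratio kept its direction in each comparison with controls under every setting tried for it. Those settings (left-out samples, animals of at most 17 weeks, Gm42418 level, nuclear copies), like all settings for the class shares, were chosen after seeing the data. The number of members called was less stable. In ΔMT homozygotes it was 1 and became 8 at an adjusted p under 0.1, 5 with DESeq2 or with only the compared groups, 3 with sample totals or a 5 CPM filter, 2 without a filter and 0 to 3 with a sample left out. In SOM homozygotes it was 2 and became 0 when a change of at least 1 log2 unit was asked for and 1 to 4 with a sample left out. Between the alleles it was 1 and became 6 at an adjusted p under 0.1, 4 with DESeq2, 0 with a 5 CPM filter or only the compared groups and 0 to 2 with a sample left out. In RNAi mutants it was 2 and became 0 with at least 1 log2 unit, 1 up to 17 weeks and 1 to 2 with a sample left out. In double mutants it was 6 and became 1 with at least 1 log2 unit, 0 up to 17 weeks and 2 to 9 with a sample left out. Whether the numbers in the sample titles pair the samples was not settled. Correlations of same-numbered deviations ran from -0.025 to 0.054 in the single-end run and from -0.069 to 0.18 in the paired-end run. In the latter the highest, 0.18 and 0.135, joined same-numbered double mutants and controls, beside at most 0.11 for different numbers. Correlations for different numbers also reached down to -0.18, as large in size. With these numbers as a replicate block the counts were 1 in SOM homozygotes, 0 in RNAi mutants and 2 in double mutants (mt-Nd1 and mt-Co1). Small differences changed sign. The total share in ΔMT homozygotes became -0.0067 with TMM library sizes, and up to 17 weeks it became -0.081 in RNAi and -0.14 in double mutants, as did the rRNA share in RNAi mutants (-0.18) and the tRNA share in RNAi (-0.39) and double mutants (-0.15). With copies added, the coding share of double against RNAi mutants became 0.013. With a sample left out, ranges that crossed 0 were, for the total share, -0.0695 to 0.11 in ΔMT homozygotes, -0.0401 to 0.18 in RNAi mutants, -0.076 to 0.14 in double mutants and -0.091 to 0.033 between them, for the coding share -0.068 to 0.30 in SOM homozygotes and -0.072 to 0.061 between double and RNAi mutants, for the rRNA share -0.13 to 0.047, -0.13 to 0.081, -0.18 to 0.037 and -0.096 to 0.025 in ΔMT homozygotes, RNAi mutants, double mutants and between the last pair, for the tRNA share -0.11 to 0.27 in RNAi mutants, and for the ratio -0.14 to 0.039 between the alleles. The causes were not tested. Precision is limited by groups of 2 to 4 samples, by a SOM homozygote of 6468380 counts and by tRNA genes of a few counts.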
